A study of Strongylocentrotus purpuratus with 191 samples.

Results

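Delta, Notch and Su(H) are the ligand, the receptor and the DNA-binding partner of one short signalling pathway, and their transcripts were followed here at mid-gastrula in Strongylocentrotus purpuratus, the purple sea urchin. The members were all probes whose gene column reads delta, notch or Su(H) in the authors' normalized table. These were 14 of its 336 probes and 3 of its 74 genes, with 5 probes for delta, 6 for notch and 3 for Su(H). RNA came from 191 whole-embryo cultures, and each was read on a DASL array, an Illumina assay in which short oligonucleotide pairs are extended and ligated on cDNA, amplified and hybridised to beads. The cultures descended from 8 females and 8 males in 2 blocks that the labels number 3 and 4, and in each block 4 females were mated with 4 males to give 16 crosses. Embryos of every cross grew in artificial sea water at 12C (64 cultures), 15C (63 cultures) or 18C (64 cultures), in 2 replicates except for 1 combination with 1 culture. No line, allele or agent other than temperature separates the groups, and no culture outside these 3 temperatures was analysed here.

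Delta sits on the surface of a signalling cell and binds Notch on its neighbour. Notch is then cleaved, and its inner part enters the nucleus and joins Su(H), which switches from holding target genes silent to activating them. In sea urchin embryos delta is first expressed in the descendants of the micromeres, which build the skeleton, and later in adjoining mesoderm, and its signal directs neighbouring cells to become pigment cells and other non-skeletogenic mesoderm.

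Each block was assayed on a plate of its own, so a block difference and a plate difference cannot be told apart, and plate rows nearly followed temperature, with 7 of 16 rows holding 1 temperature only. Warmer cultures were also sampled earlier, with mean sampling times of 37.3, 28.6 and 23.3 at 12C, 15C and 18C in block 3 and of 37.7, 28.1 and 23.0 in block 4, in a unit the labels do not state. The labels do not say whether the replicates of a cross were separate fertilizations. The stage slopes and the tests between replicate cultures use single cultures, so their p-values may measure technical spread. The temperature and parent tests use means over replicates, with the scatter among crosses as error. Those crosses share 8 females and 8 males and are not independent. Of 16 marker genes of gut, skeletogenic mesenchyme, pigment cells and oral ectoderm on the panel, 15 had a detected probe on both plates, and the exception was Alx1, a transcription factor gene of the skeletogenic lineage (0.07 and 0.05 log2 units above the negative controls). No gene of the aboral ectoderm list was on the panel. In whole embryos, fewer expressing cells and less RNA per cell cannot be told apart.

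The results turn on single probes as much as on genes, so the probes that differ within a gene are shown first, as the files give them, from 5′ to 3′ in the files' orientation. All letters are in lower case because no stretch of them is singled out. Exon numbers are the files' own labels, and no genome coordinates are given because the files name no build. The 4 Su(H) probes are shown because the temperature and male tests passed for single probes of the gene, and the exon 4 probe is in the non-normalized table only.
Su(H) exon 3, probe 2152: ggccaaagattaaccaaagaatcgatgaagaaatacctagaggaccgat
Su(H) exon 4, probe 1079: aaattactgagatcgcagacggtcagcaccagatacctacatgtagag
Su(H) exon 5, probe 1841: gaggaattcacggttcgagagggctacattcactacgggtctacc
Su(H) exon 6, probe 1037: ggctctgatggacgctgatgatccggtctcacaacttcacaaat

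The 6 notch probes are shown because the exon 3 probe 4950 alone was detected in most cultures, and on 1 plate.
notch exon 3, probe 4950: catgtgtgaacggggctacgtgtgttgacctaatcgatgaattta
notch exon 3, probe 3811: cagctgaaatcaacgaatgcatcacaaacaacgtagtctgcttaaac
notch exon 3, probe 5131: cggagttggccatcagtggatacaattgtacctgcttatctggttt
notch exon 6, probe 753: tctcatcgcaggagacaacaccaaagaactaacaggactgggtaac
notch exon 6, probe 4116: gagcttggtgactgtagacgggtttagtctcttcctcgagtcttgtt
notch exon 7, probe 3789: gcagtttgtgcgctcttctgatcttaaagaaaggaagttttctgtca

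Of the delta probes, 2 are shown, the one with the largest difference between females and the only one that passed the test between males.
delta exon 2, probe 2960: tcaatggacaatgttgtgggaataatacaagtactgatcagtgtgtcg
delta exon 9, probe 4061: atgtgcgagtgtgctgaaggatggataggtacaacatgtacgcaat
These sequences are 44 to 49 bases long, and the longest stretch that any 2 probes of these genes share is 10 bases, so the probes read separate parts of their transcripts.

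Before normalization, delta and Su(H) gave signal well above the array's negative controls and notch did not. Over its 5 probes, delta lay 2.51 ± 0.31 log2 units above the median negative control in block 3 (SD, n = 96 cultures) and 3.80 ± 0.26 in block 4 (SD, n = 95). Su(H) lay 2.40 ± 0.26 above in block 3 and 4.63 ± 0.28 in block 4, while the median over all panel genes was 2.42 and 4.14. notch lay only 0.10 ± 0.09 above in block 3 and 0.57 ± 0.18 in block 4, the fifth dimmest of the 74 genes on both plates. Each of the 5 delta probes and 3 Su(H) probes was detected in at least 97.9% of the cultures of each plate, where detected means that under 0.05 of the 27 negative controls reached the probe's value.

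Among the notch probes, 4950 was detected in 56 of 95 cultures in block 4 (58.9%) and in 2 of 96 in block 3. Its signal over the negative controls in block 4 ran from 1.13 through a median of 1.95 to 2.87. The other 5 notch probes were detected in at most 3 of 95 cultures in block 4, and in at most 5 of 96 in block 3. In block 4 their medians lay between -0.00082 (probe 3811) and 0.78 (probe 4116). The receptor gene was therefore measured close to background, and in block 3 by no probe that stood out from it. Of the probes that the normalized table leaves out, the Su(H) exon 4 probe was detected in 54 of 96 and 76 of 95 cultures and the delta exon 4 probe in 16 of 96 and 8 of 95.

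**Figure D1:**
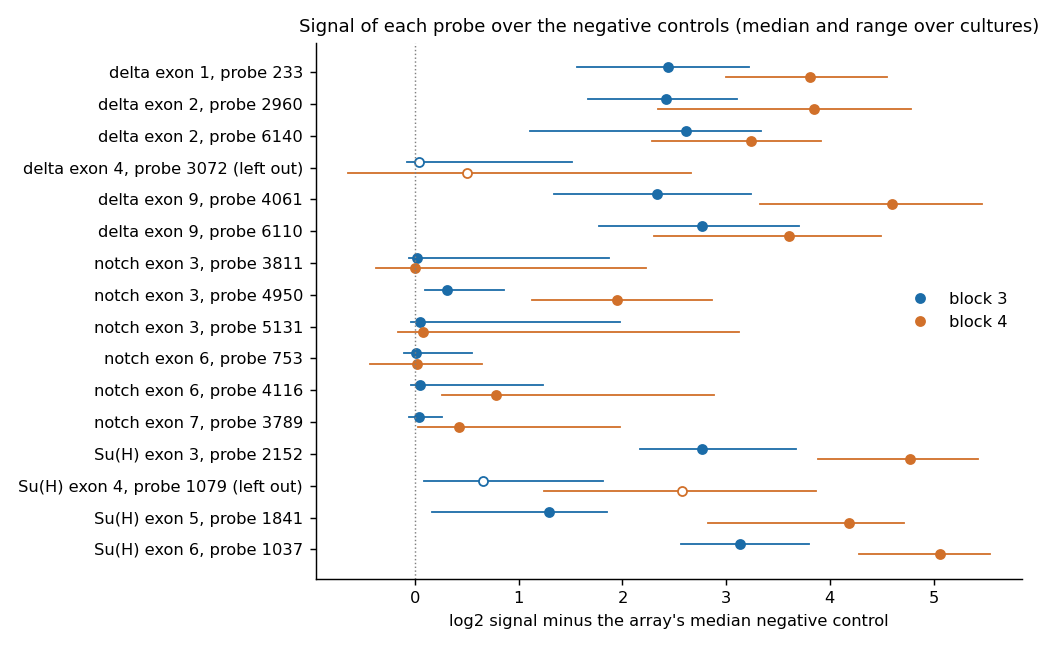
Log2 signal of each of the 16 probes minus the median negative control of its array (horizontal axis), with the median over cultures as a point and the lowest and highest culture as a line, in blue for block 3 (96 cultures) and orange for block 4 (95 cultures); open points are probes left out of the normalized table. The delta and Su(H) probes of the normalized table have medians from 1.30 to 5.06. The notch probes have medians from -0.00082 to 0.78, except probe 4950 in block 4, at 1.95.

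The authors' normalized log2 values have a mean of 0 for every probe on each plate, so they show differences within a block and no difference in level between blocks or genes. In block 3, delta ran from -0.50 through a median of 0.01 to 0.44 at 12C, from -0.32 through -0.03 to 0.31 at 15C, and from -0.30 through 0.01 to 0.38 at 18C. In block 4 it ran from -0.49 through -0.02 to 0.23 at 12C, from -0.25 through 0.01 to 0.35 at 15C, and from -0.30 through 0.02 to 0.21 at 18C. The 3 temperatures overlapped over most of their range in both blocks, and no group stood apart.

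For notch, the values in block 3 ran from -0.13 through a median of -0.04 to 0.41 at 12C, from -0.24 through -0.03 to 0.18 at 15C and from -0.18 through -0.00324 to 0.81 at 18C. In block 4 they ran from -0.23 through -0.09 to 0.48 at 12C, from -0.11 through 0.06 to 0.75 at 15C and from -0.34 through -0.06 to 0.26 at 18C. Most of the 15C cultures of block 4 thus lay higher than the middle of the other temperatures, with the ranges overlapping. The highest value of each block belonged to 1 culture, A3xC3 replicate 2 at 18C in block 3 and C4xC4 replicate 1 at 15C in block 4 (crosses are written female x male).

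Su(H) in block 3 ran from -0.26 through a median of 0.03 to 0.37 at 12C, from -0.25 through 0.02 to 0.30 at 15C and from -0.38 through -0.03 to 0.30 at 18C. In block 4 it ran from -0.29 through 0.03 to 0.39 at 12C, from -0.76 through 0.07 to 0.37 at 15C and from -0.45 through -0.08 to 0.32 at 18C. The 18C group had the lowest median in both blocks, and all groups overlapped. The lowest culture was D4xA4 replicate 2 at 15C.

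**Figure D2:**
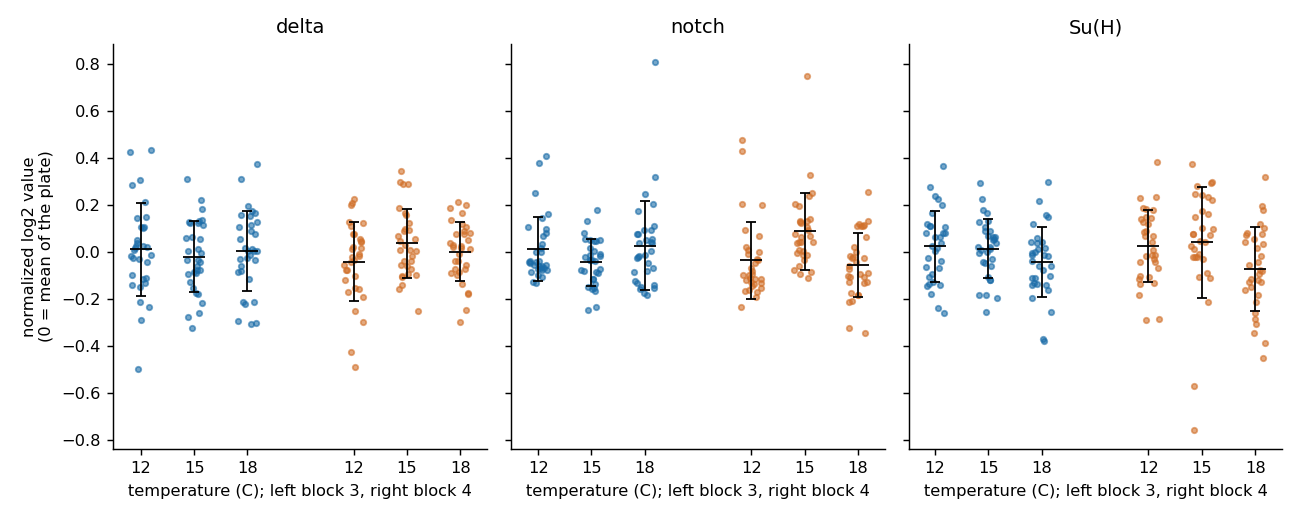
Normalized log2 value (vertical axis, 0 is the mean of the plate) of delta, notch and Su(H) in each culture by temperature, blue for block 3 and orange for block 4, with the mean as a dash and ± SD as a bar (n = 32 cultures per group, 31 at 15C in block 4). The groups overlap throughout, with means between -0.07 and 0.09.

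The first comparison asks how growth temperature moved the pathway genes, over 96 means of a cross at a temperature, compared within crosses. In the normalized values, Su(H) fell by 5.55% from 12C to 18C, a log2 difference of -0.082 ± 0.025 (SE, 32 crosses, approximate 95% interval from -0.132 to -0.033, adjusted p = 0.0141 by limma with Benjamini-Hochberg adjustment over 74 genes). It was lower in 19 of 32 crosses, and the changes of single crosses ran from -0.39 to 0.17. delta gave 0.018 ± 0.026 (interval from -0.032 to 0.069, adjusted p = 0.690) and was higher in 19 of 32 crosses. notch gave -0.0025 ± 0.029 (interval from -0.059 to 0.055, adjusted p = 0.975). One of the 3 genes thus passed the test, against 17.6% of all 74 genes, and the panel's median change was 0.02. Before normalization, the mean signal of Su(H) over the negative controls was 2.26 at 12C and 2.47 at 18C in block 3. In block 4 it was 4.63 and 4.66. The median over the panel's probes was 2.24 and 2.59 in block 3 and 4.10 and 4.21 in block 4. The fall of Su(H) thus holds for the normalized values and not for its signal over the negative controls.

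Between 15C and 12C, none of the 3 genes passed, with differences of 0.022 ± 0.026 for delta (adjusted p = 0.787), 0.035 ± 0.029 for notch (0.728) and 0.0035 ± 0.025 for Su(H) (0.969), where 4.05% of the genes did. Between 18C and 15C, the normalized value of Su(H) fell by 5.77%, or -0.086 ± 0.025 (adjusted p = 0.0303), in 24 of 32 crosses and in 14 of the 16 of block 4. delta (-0.0033 ± 0.026, adjusted p = 0.936) and notch (-0.038 ± 0.029, adjusted p = 0.537) did not pass, where again 4.05% of the genes did. The comparisons at 18C share the same 18C cultures and are not independent. The departure of 15C from the midpoint of the other temperatures was 0.045 ± 0.022 for Su(H) (p = 0.0465, adjusted p = 0.780) and passed for none of the genes (0% by limma, with 4 genes at an unadjusted p under 0.05).

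The Su(H) difference had the same sign in both blocks, -0.066 ± 0.036 in block 3 and -0.099 ± 0.036 in block 4, and these changes did not differ beyond their error (difference -0.033 ± 0.051, adjusted p = 0.955). With the median over all genes taken out of each array it was -0.098 (adjusted p = 0.00484), where 23 of the 74 genes passed. The call ended without replicate 1 (-0.076, adjusted p = 0.241) or replicate 2 (-0.089, adjusted p = 0.0904), with the brightest probe (-0.042, adjusted p = 0.303) or the median of probes (-0.085, adjusted p = 0.0544), with culture stage as a covariate (-0.076, adjusted p = 0.0588) and without the cross as a block (adjusted p = 0.0765). For 18C against 15C it ended without replicate 1 (-0.057) or 2 (-0.116, adjusted p = 0.0530), with the brightest probe (-0.035), the median of probes (-0.092), no cross block (adjusted p = 0.188) and in the non-normalized tables (-0.073 to -0.061).

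Within Su(H), the exon 5 probe 1841 was the one probe of the 3 to pass. From 12C to 18C its normalized value fell by 9.93%, or -0.151 ± 0.040 (adjusted p = 0.00874 over 336 probes), in 23 of 32 crosses. From 15C to 18C the difference was -0.184 ± 0.040 (adjusted p = 0.00200), in 27 of 32 crosses and in 15 of the 16 of block 4. In the non-normalized values centred on each array it gave -0.197 ± 0.065 (adjusted p = 0.0213 over 384 probes) and -0.147 ± 0.065 (adjusted p = 0.337), so that the second did not pass there. Of the 384 probes, 90 and 4 passed there. The exon 3 probe 2152 gave -0.054 ± 0.041 and -0.039 ± 0.041 for these comparisons, and the exon 6 probe 1037 gave -0.042 ± 0.026 and -0.035 ± 0.026. Among all probes, 8.93% passed for 18C against 12C and 3.57% for 18C against 15C, and 1 of the 14 probes of the 3 genes did so in each. For 15C against 12C 0.595% of the probes passed, none of them among the 14.

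The difference between the Su(H) probes was tested after their values were seen. The exon 5 probe was picked from the same crosses, so the permutation p-values do not allow for that choice. For 18C against 12C, the change of the exon 5 probe minus the mean change of the other 2 was -0.103 ± 0.055 (lower in 21 of 32 crosses, sign-flip permutation p = 0.0733, two-sided). For 18C against 15C it was -0.147 ± 0.038 (26 of 32 crosses, permutation p = 0.00029). In the non-normalized values centred on each array these differences were -0.131 ± 0.073 (permutation p = 0.0823) and -0.124 ± 0.049 (permutation p = 0.0176). The signal of the exon 5 probe over the negative controls was 1.29 ± 0.32 in block 3 (SD, n = 96) and 4.11 ± 0.42 in block 4 (SD, n = 95).

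All 5 delta probes failed the temperature tests, and they did not share a sign. For 18C against 12C the exon 1 probe 233 gave -0.022 ± 0.031 and the exon 2 probe 2960 gave -0.073 ± 0.036 (adjusted p = 0.192). The other exon 2 probe, 6140, gave 0.041 ± 0.051, and the exon 9 probes 4061 and 6110 gave 0.081 ± 0.054 and 0.065 ± 0.049. The mean over these probes was near 0 for the ligand gene.

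**Figure D3:**
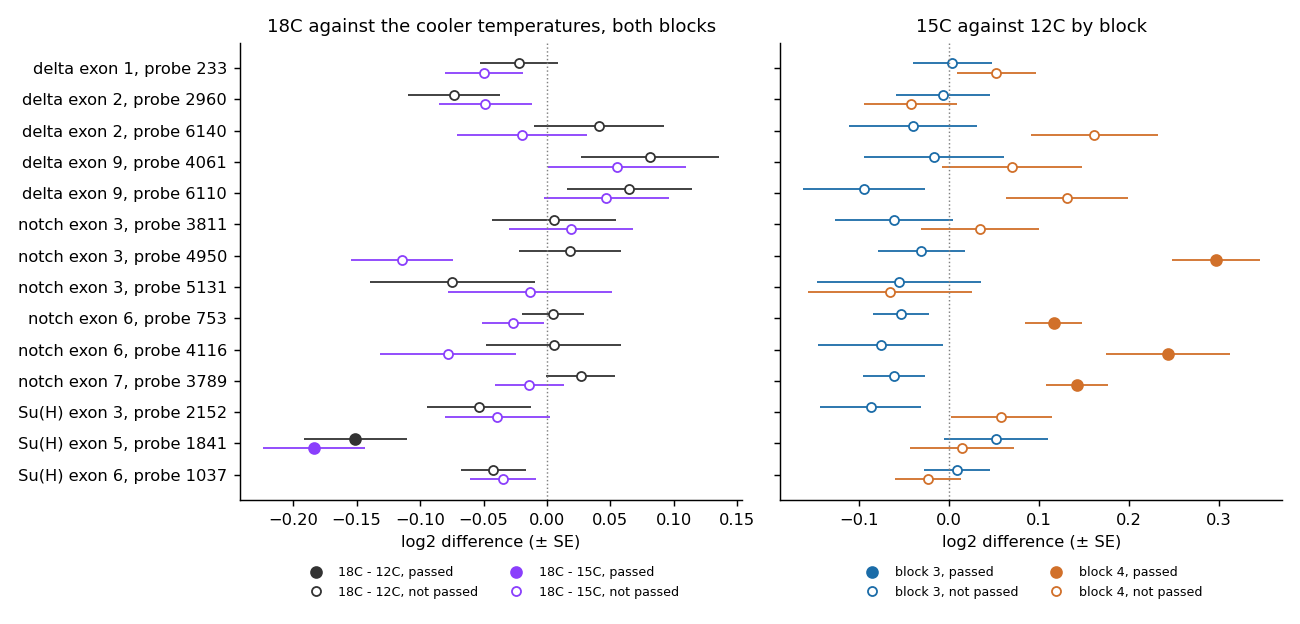
Log2 difference ± SE of the 14 probes of the normalized table (horizontal axis), on the left for 18C against 12C (black) and 18C against 15C (purple) over 32 crosses, on the right for 15C against 12C in block 3 (blue) and block 4 (orange), 16 crosses each; filled points passed an adjusted p of 0.05 over 336 probes. On the left, the Su(H) exon 5 probe alone is filled, at -0.151 and -0.184, and on the right 4 notch probes are filled in block 4, from 0.116 to 0.296. The share of all 336 probes passing in block 4 is not given, so these 4 are not set against the panel. In block 4 the change from 12C to 15C was above 0 in 67 of all 74 genes of the panel.

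The next comparison asks whether the blocks, each with parents and a plate of its own, responded alike. The response of notch to temperature differed between blocks (F = 10.6 on 2 degrees of freedom, adjusted p = 0.00259), and those of delta (F = 2.23, adjusted p = 0.245) and Su(H) (F = 0.658, adjusted p = 0.677) did not pass. Of the 74 genes, 16.2% passed. With block 4 fitted alone, 5 of the 74 genes passed for 15C against 12C. In the fit of both blocks, 21 of the 74 genes had an unadjusted p under 0.05 by limma for this change in block 4. There the mean of the notch probes rose by 0.128 ± 0.036 (adjusted p = 0.0140), in 13 of 16 crosses, whose changes ran from -0.20 to 0.35. As 5 of these 6 probes were seldom above the negative controls, the value gives no fold for the transcript. In block 3 the difference was -0.057 ± 0.036 (adjusted p = 0.380), with 11 of 16 crosses lower. The blocks differed by 0.184 ± 0.051 in this change (adjusted p = 0.00883) and by -0.218 ± 0.051 for 18C against 15C (adjusted p = 0.00231).

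The median change over the whole panel had the same signs as that of notch. From 12C to 15C the median change over genes was -0.04 in block 3, where 14 of 74 genes lay above 0, and 0.05 in block 4, where 67 did. With array medians removed, the difference between blocks in the response of notch did not pass (F = 2.82, adjusted p = 0.355). It did not pass without replicate 1 either (F = 1.67, adjusted p = 0.735), nor when the non-normalized values were centred on each array (F = 3.90, adjusted p = 0.133).

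By probe, 4 of the 6 notch probes passed for temperature by block, none of the delta or Su(H) probes did, and 9.82% of all probes did. None of the 6 passed with array medians removed (adjusted p from 0.132 to 0.695 for those 4). The detected exon 3 probe 4950 had F = 13.2 (adjusted p = 0.00270). In block 4 it rose from 12C to 15C by 0.296 ± 0.049 (adjusted p = 1.21e-05), in 15 of 16 crosses, and in block 3 it gave -0.031 ± 0.049. With array medians removed this probe still passed in block 4 (0.231 ± 0.049, adjusted p = 0.00135), with F = 5.66 for the difference between blocks.

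The exon 6 probe 4116 gave 0.243 ± 0.069 in block 4 for 15C against 12C, the exon 7 probe 3789 gave 0.142 ± 0.034, and the exon 6 probe 753 gave 0.116 ± 0.031. These 3 passed as well, with no share of all probes given, although each was detected in at most 3 of 95 cultures there. They did not pass with array medians removed, at 0.177 (adjusted p = 0.149), 0.076 (adjusted p = 0.326) and 0.050 (adjusted p = 0.416). The remaining exon 3 probes gave 0.034 ± 0.066 (3811) and -0.066 ± 0.091 (5131). When the non-normalized values were instead centred on each array's median probe, notch at 18C differed from 12C by -0.215 (adjusted p = 0.00203), a call the normalized table did not give. On that scale 28 of the 74 genes passed, against 13 in the normalized table. The signal of the whole panel over the negative controls in block 3 was 2.24 ± 0.26 at 12C (SD, n = 32), 2.49 ± 0.28 at 15C and finally 2.59 ± 0.29 at 18C, and its part in the notch value was not tested.

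The crosses also separate mothers from fathers, over 32 cross means with the scatter of female-by-male combinations as error. delta differed between females (F = 6.32 on 6 degrees of freedom, adjusted p = 0.00139) and between males (F = 3.14, adjusted p = 0.0334). Su(H) differed between females (F = 4.09, adjusted p = 0.0113), with F = 1.70 between males (adjusted p = 0.179). notch did not pass for either (F = 2.44 for both, adjusted p = 0.0655 and 0.0679). Parent differences were common on the panel, with 81.1% of the genes passing for females and 75.7% for males, so 2 of 3 and 1 of 3 are no larger shares than the background.

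For delta, offspring of female C3 lay above their block's mean by 0.110 ± 0.078 (SD, n = 4 crosses) and those of female D3 lay at -0.113 ± 0.073, a 1.17-fold range. The 4 crosses of C3 ran from 0.030 to 0.217 and those of D3 from -0.197 to -0.023, without overlap. In block 4 the offspring of female C4 lay at -0.109 ± 0.017, with all 4 crosses between -0.124 and -0.089, and those of the other females averaged between 0.029 and 0.050. The medians over all panel genes moved the same way for these females (0.04 for C3, -0.06 for D3 and -0.06 for C4), and with array medians removed the test of delta between females gave F = 2.74 (adjusted p = 0.0564). Without replicate 2 it gave F = 2.07 (adjusted p = 0.133). Culture stage also differed between females of block 4, with lower scores on average in the cultures of C4 than in those of D4. The part of stage in the differences between females was not tested.

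Among the males, offspring of C3 were highest for delta in block 3 (0.097 ± 0.123) and those of D4 in block 4 (0.061 ± 0.138). The crosses of the 4 males overlapped within each block. The panel medians of these males were also the highest of their blocks (0.08 and 0.05). The test of delta between males did not pass with array medians removed (F = 1.03), without replicate 2 (F = 1.15) or in the non-normalized tables (F from 0.227 to 0.389).

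For Su(H), offspring of female B4 lay lowest in block 4, at -0.115 ± 0.062, with the 4 crosses between -0.187 and -0.053. The panel median of that female was 0.05, in the opposite direction. Offspring of female D3 lay lowest in block 3 (-0.091 ± 0.078), where the panel median was -0.06. The highest were those of A4 (0.068 ± 0.059) and C3 (0.057 ± 0.068). With array medians removed the difference between females was F = 7.26 (adjusted p = 0.000912), where 49 of the 74 genes passed. The call for Su(H) was lost without replicate 1 (F = 1.41) and without replicate 2 (F = 2.49).

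The offspring means of notch by female ran from -0.082 ± 0.059 (D3) to 0.044 ± 0.051 (C3) in block 3 and from -0.027 ± 0.066 (A4) to 0.037 ± 0.047 (C4) in block 4. By male they ran from -0.045 ± 0.048 (A3) to 0.074 ± 0.134 (C3) and from -0.047 ± 0.059 (B4) to 0.023 ± 0.039 (D4). With array medians removed the difference between females passed (F = 6.24, adjusted p = 0.00185), as it did between males (F = 3.29, adjusted p = 0.0374). On that scale 49 of the 74 genes passed for females and 40 for males.

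**Figure D4:**
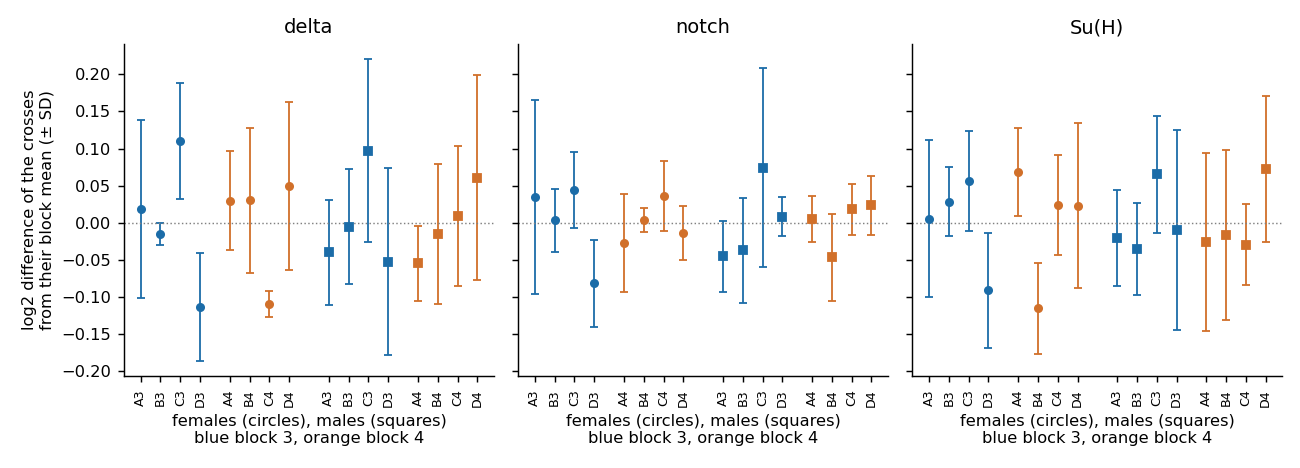
Mean over 4 crosses ± SD of the log2 difference from the block mean (vertical axis) for the offspring of each female (circles) and male (squares), blue for block 3 and orange for block 4. For delta, females D3 (-0.113) and C4 (-0.109) lie lowest, and for Su(H) females B4 (-0.115) and D3 (-0.091).

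Probes of a gene did not all show the parents alike. For females, 4 of 5 delta probes, 2 of 6 notch probes (753 and 4116) and 2 of 3 Su(H) probes (1841 and 1037) passed, where 61.3% of all probes did. Probe 2960 of delta had the highest F of its gene (7.31, adjusted p = 0.00153), and probe 6110 was the delta probe that did not pass (F = 2.07, adjusted p = 0.128). For males, 1 probe passed for each gene, delta 4061 (F = 3.59, adjusted p = 0.0293), notch 753 and Su(H) 1037, where 51.8% of all probes did.

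The Su(H) exon 6 probe 1037 differed between males with F = 9.28 (adjusted p = 0.000617), although the gene's mean did not pass. Its values were highest in the offspring of male C3 (0.133 ± 0.053, SD, 4 crosses) in block 3 and of male D4 (0.145 ± 0.062) in block 4. The other males averaged between -0.093 and -0.005. The exon 3 and exon 5 probes gave F = 1.87 and F = 1.78 for males, and whether the probes differ in this was not tested. With array medians removed, probe 1037 passed between males (F = 3.94, adjusted p = 0.0274), delta 4061 (adjusted p = 0.139) and notch 753 (adjusted p = 0.433) did not, and notch 5131 did (F = 3.62, adjusted p = 0.0372). Between females 2 of 5 delta probes then passed (233 and 2960), with 2 of 6 notch probes (753 and 4116) and 3 of 3 Su(H) probes. Passing was common on that scale, where 49 of the 74 genes passed for females and 40 for males. The share of all probes passing there is not given, so these probe counts are not set against the panel.

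Whether the temperature response itself differed between parents was tested with 36 residual degrees of freedom, and no member passed. For females by temperature, F was 0.878 for delta, 1.54 for notch and 0.669 for Su(H), with adjusted p of 0.829, 0.621 and 0.878, and 0% of the genes passed by limma (7 at an unadjusted p under 0.05). For males by temperature, F was 1.13, 0.957 and 0.655, each with an adjusted p of 0.996, and again 0% of the genes passed (2 at an unadjusted p under 0.05).

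Between females, the variance component of delta was 20.9% of the variance left after block and temperature, above the panel's median of 10.1%. It was 13.3% for Su(H) and 3.42% for notch. Males accounted for 8.14%, 2.96% and 4.85% in delta, Su(H) and notch, with a panel median of 8.01%. The residual held the largest share in all 3 genes, 64.5% in delta, 79.5% in Su(H) and 87.6% in notch. It pools differences between cultures of one combination with differences of single crosses between temperatures. These shares are estimates without a test.

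Culture stage, a score whose scale the labels do not state, averaged between 0.323 and 0.386 over the 6 groups of block and temperature. Within crosses and groups, the slope was 0.036 ± 0.019 log2 units per 0.1 of the score for delta (adjusted p = 0.431), 0.017 ± 0.022 for Su(H) (adjusted p = 0.793) and -0.0052 ± 0.021 for notch (adjusted p = 0.890). None of these slopes passed, where 1.35% of the genes did. The spread of stage within a culture gave slopes that also did not pass (adjusted p of 0.924 for delta and 0.917 for notch and Su(H)), with 0% of the genes passing by limma and 4 at an unadjusted p under 0.05.

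The next question was whether the pathway genes varied together between sister cultures of 1 cross and temperature, where parents, block and temperature are equal. Over 95 such pairs, the differences of delta and Su(H) rose together (Pearson r = 0.424, permutation p = 4e-05, adjusted over 3 pairs 0.00012, and Spearman rho = 0.442, permutation p = 2e-05, adjusted 6e-05). The relation gave r = 0.483 in block 3, r = 0.425 in block 4 and r = 0.389 without the 2 pairs farthest out in delta. Other genes of the panel were related on this scale too: the median r over all 2701 gene pairs was 0.32, and 34.1% of them reached at least the r of delta and Su(H). Once array medians were removed the median was -0.0072, delta and Su(H) gave r = 0.509, and 3.41% of the gene pairs reached that. On that scale r was 0.458 in block 3, falling to 0.246 without the 2 pairs farthest out, and 0.592 in block 4, with 0.562 without them.

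For notch and Su(H) the pooled r was 0.260, which 59.0% of the gene pairs reached (adjusted permutation p = 0.0181, rho = 0.368, adjusted permutation p = 0.00027). It was 0.506 in block 3 and 0.136 in block 4, where it did not pass (adjusted permutation p = 0.537), and 0.305 without the 2 pairs farthest out in notch. In block 4 the values with array medians removed gave r = 0.264 (adjusted permutation p = 0.108) and rho = 0.394 (adjusted permutation p = 0.00987). Between delta and notch r was 0.145, which 74.8% of the gene pairs reached (adjusted permutation p = 0.163) and rho 0.253 (adjusted permutation p = 0.0134), with an r of 0.248 in block 3, 0.032 in block 4 and 0.093 without the 2 pairs farthest out. Each culture was 1 array, so its genes share the level of that array, which the values with array medians removed take out.

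**Figure D5:**
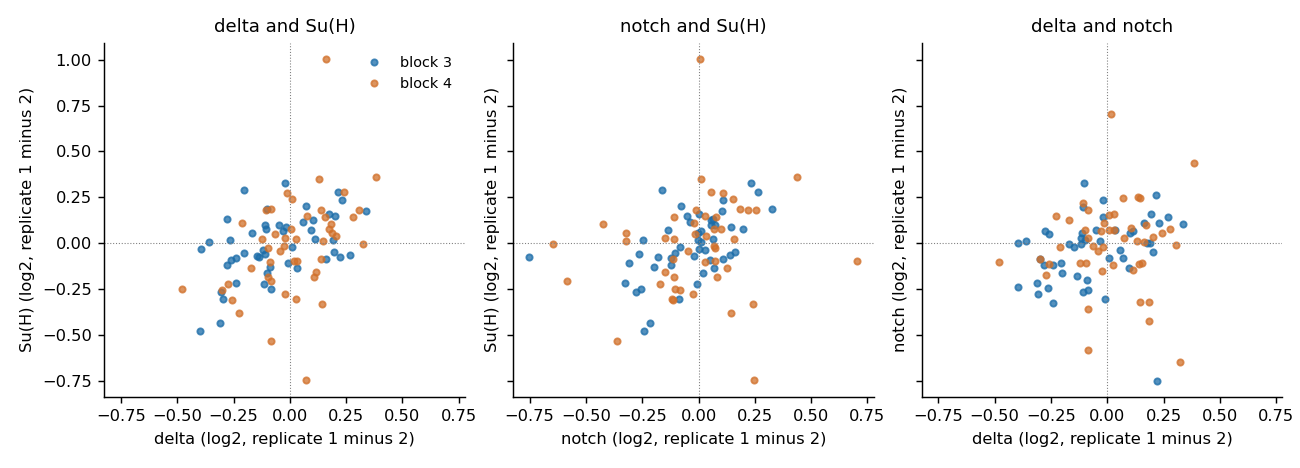
Difference between the 2 replicate cultures of a cross and temperature (replicate 1 minus 2, normalized log2 values) for each pair of genes, 95 pairs, blue for block 3 and orange for block 4. The points of delta and Su(H) slope upwards (r = 0.424), and the other pairs gave r = 0.260 (notch and Su(H)) and r = 0.145 (delta and notch), beside a median of 0.32 over all gene pairs of the panel.

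The genes whose pattern was most like each member are given as a description, over 96 cross-by-temperature means centred within block with array medians removed. For delta they were CyclinT (r = 0.55, with 0.57 in block 3 and 0.54 in block 4), Endo16, a gut gene (r = 0.44, 0.39 and 0.46), and VEGFR-10-Ig (r = 0.43, 0.35 and 0.48). For Su(H) they were VEGFR-10-Ig (r = 0.68, with 0.41 in block 3 and 0.76 in block 4), CyclinT (r = 0.58, 0.68 and 0.54) and Endo16 (r = 0.50, 0.09 and 0.65). All 3 genes were common to both lists, and delta and Su(H) themselves gave r = 0.43. For notch they were Otp (r = 0.76, with 0.69 in block 3 and 0.78 in block 4), Not (r = 0.70, 0.64 and 0.72) and Mif-7 (r = 0.47, 0.20 and 0.63), none of them shared with the lists of delta or Su(H). Otp and Not lay, like notch, at the negative controls (0.0046 and 0.057 log2 units above them in block 3, -0.052 and -0.059 in block 4), and each of their probes was detected in at most 3.16% of a plate's cultures. The part of this in the likeness was not tested.

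Other genes of the pathway and its surroundings were counted from 3 lists. Of 15 Notch pathway components, 4 were on the panel, the 3 members and HesC, the repressor that keeps delta off outside the micromere lineage. HesC gave 0.012 ± 0.024 for 18C against 12C (adjusted p = 0.802), and it differed between females (F = 4.99, adjusted p = 0.00426) and males (F = 6.42, adjusted p = 0.00200). The 4 components had a median change of 0.0047 for 18C against 12C, where the median of all 74 genes was 0.015.

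Upstream of delta in the micromeres, 8 of 10 listed genes were on the panel, HesC again among them, and none of them passed for 18C against 12C, 15C against 12C or 18C against 15C by limma. Their median change for 18C against 12C was 0.041. Wnt8, a ligand of early vegetal signalling, gave 0.093 ± 0.036 (adjusted p = 0.0658) and B-catenin, its nuclear effector, gave 0.072 ± 0.034 (adjusted p = 0.136). Pmar1, which represses hesC, gave 0.033 ± 0.043 (adjusted p = 0.682). Ets1, a transcription factor gene of the skeletogenic cells, was the one of the 8 to differ between blocks in its temperature response (F = 9.30, adjusted p = 0.00349). On the whole panel 16.2% of genes did so, and Ets1 was dim. Its signal over background was 0.88 log2 units on the plate of block 3 and 1.46 on that of block 4. Once array medians were removed, 2 genes of the panel passed this test instead of 12. Whether Ets1 was among those 2 is not given. Between males all 8 passed, and between females 7 did, with SoxC the exception, where 75.7% and 81.1% of all genes passed. All these values come from whole embryos at mid-gastrula and not from the micromere lineage alone.

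Of 14 listed mesoderm genes downstream of Delta signalling, 5 were on the panel, and their median change for 18C against 12C was -0.060. Erg, of the ETS family, fell by 0.148 ± 0.044 (adjusted p = 0.0133), and it was the only one of the 5 to pass, where 17.6% of all genes did. gatae and gataC gave -0.060 ± 0.025 (adjusted p = 0.0935) and -0.095 ± 0.044 (adjusted p = 0.124). gatae was also among the gut markers counted above. gcm, the pigment cell regulator that Su(H) binds, gave 0.094 ± 0.040 (adjusted p = 0.0968) and Fmo2, an enzyme gene of pigment cells, gave 0.013 ± 0.043 (adjusted p = 0.864). The downstream genes thus did not share a sign.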

How the data were processed

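Total RNA of 191 sea urchin cultures was read on a DASL panel, and the submitters' processing notes name BeadStudio. The authors' deposited normalized log2 values (336 probes) are centred on each probe within a plate, as read from the values, and how they were normalized is not given in the sources used here. The deposited non-normalized table (384 gene probes, 27 negative controls) was read as log2 intensity from its range, 7.17 to 14.7. The deposited series matrix held the same log2 values (largest difference 0). Of the array columns, 1 of poor quality was not used. No 2 arrays were identical (highest r = 0.910), and for arrays the number of cultures limits the precision.

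Probes of a gene were averaged. Tests were limma moderated t or F tests over all 74 genes or 336 probes, with Benjamini-Hochberg adjustment and a threshold of 0.05. Temperature tests used 96 means (cross by temperature), cross as fixed block (62 residual degrees of freedom), parent tests 32 cross means (18), and stage slopes 191 cultures. Signal over negative controls is a probe's non-normalized log2 value minus the array's median negative control. Permutation tests drew 100000 resamples, and 1e-05 is the smallest p they can give. Variance shares came from lme4. The models were tested on simulated data. Versions were limma 3.58.1 and lme4 1.1.37 under R 4.3.3, and numpy 2.4.6, scipy 1.17.1, pandas 2.3.3 and matplotlib 3.10.9 under python 3.11.15.

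Members, lists, tests and alternatives were chosen with earlier results of these data known. The named genes were the 3 members, the measured genes of the 3 lists and the 3 genes most like each member. Gene names are those of the files, and delta alone of the 3 matched a symbol of the reference gene table. No probe was filtered for low signal, so all 14 probes were tested.

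Replicate numbers were checked as pairs across temperatures. Over 94 pairs of same-numbered deviations r ran from -0.517 to 0.718 with a median of -0.0026, so the numbers do not pair cultures.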

Additional observations from a re-analysis of the deposited data

Results flagged for a closer look

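The change of notch from 12C to 15C differed between the blocks by 0.18 on the log2 scale (block 4 minus block 3), by the test of that difference given above. All notch probes lay near the negative controls in block 3, and the panel's median change also differed in sign between blocks (-0.04 and 0.05).

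The Su(H) exon 4 probe 1079, which the normalized table leaves out, gave signal above the negative controls, 0.693 ± 0.396 in block 3 (SD, n = 96) and 2.50 ± 0.678 in block 4 (SD, n = 95). With non-normalized values centred on each array, chosen for this after seeing the data, its difference for 18C against 12C was -0.265 ± 0.075 (limma, adjusted p = 0.00636 over 384 probes, of which 90 passed). Its difference was -0.214 ± 0.075 for 15C against 12C (adjusted p = 0.0855) and -0.051 ± 0.075 for 18C against 15C. On the same scale and for 18C against 12C the exon 3 probe gave -0.077 ± 0.038 and the exon 6 probe -0.056 ± 0.033. The notch probes 5131 (-0.286), 4116 (-0.244), 3811 (-0.225), 3789 (-0.207) and 753 (-0.186), all seldom detected, passed there too. The notch probe 4950 did not (-0.145, adjusted p = 0.116). The left-out delta exon 4 probe gave -0.048 ± 0.100.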

How the results depend on the processing

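Of 305 recomputed values over 24 results and 20 settings, 216 kept their direction and their side of the threshold, 40 lost a call, 17 gained one and 32 changed sign, counting values near 0 that passed no test. The causes were not tested. Depth is set by signal over background here, and it limits notch most: with only probes detected on both plates, notch gave no value. The replicate block gave -0.0823 for Su(H) at 18C against 12C and changed no call of a member, and the numbers do not pair cultures. With the series matrix the values were identical.

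For Su(H), 18C against 12C lost its call with the median of probes (-0.0846), the brightest probe (-0.0423), block 3 alone (-0.0658), block 4 alone (-0.0988), the stage covariate (-0.0759), no cross block (-0.0823) and 1 replicate (-0.0890 to -0.0757). Its 18C against 15C lost the call with the median of probes (-0.0924), the brightest probe (-0.0346), the non-normalized table array-centred (-0.0645), quantile normalized (-0.0734) or with every probe (-0.0612), each block (-0.0567 and -0.115), no cross block (-0.0858) and 1 replicate (-0.116 to -0.0570). Its 15C against 12C turned to -0.00763 (brightest probe), -0.00788 (array medians removed), -0.0452, -0.0371 and -0.0873 (non-normalized, in the same order) and -0.00909 (block 3), with -0.0187 to 0.0270 on 1 replicate.

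For delta, 18C against 12C turned to -0.000524 (quantile normalized) and -0.00639 (block 3), and 15C against 12C to -0.0311 (block 3). Its 18C against 15C turned to 0.0549 (brightest probe), 0.00442 (array-centred), 0.000366 (every probe), 0.00412 (without 10 arrays of distant median), 0.0247 (block 3) and 0.00512 (plate columns removed).

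For notch, 18C against 12C passed in the array-centred table (-0.215, the same with every probe), and turned to 0.0181 (brightest probe), 0.0145 (block 3) and 0.0109 (stage covariate), with -0.0146 to 0.00968 on 1 replicate. Its 15C against 12C turned to -0.0960 (array-centred and every probe) and -0.0566 (block 3) and passed in block 4 (0.128). Its 18C against 15C was 0.0711 in block 3 and passed in block 4 (-0.147). Temperature by block lost its call with array medians removed (F = 2.82), in the non-normalized tables (3.90, 3.58 and 3.93) and without replicate 1 (on 1 replicate F was 1.67 to 12.7).

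The female difference of Su(H) was lost in block 3 alone (F = 3.09) and on 1 replicate (1.41 to 2.49). That of delta was lost with array medians removed (2.74), array-centred (2.33), quantile normalized (2.65), in block 4 (3.96) and without replicate 2 (on 1 replicate F was 2.07 to 8.17). That of notch was gained with the median of probes (2.87), array medians removed (6.24), array-centred (5.36), every probe (5.45), without 10 arrays (2.88) and plate columns removed (4.40).

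The male difference of delta was lost with array medians removed (F = 1.03), in the non-normalized tables (0.389, 0.292 and 0.227), without 10 arrays (2.85), in block 4 (1.70) and without replicate 2 (on 1 replicate F was 1.15 to 5.62). That of Su(H) was gained with the median of probes (2.83) and the brightest probe (10.2). That of notch was gained with the median of probes (3.36), array medians removed (3.29), quantile normalized (4.60) plate columns removed (3.22) and without replicate 1 (on 1 replicate F was 0.385 to 2.94).

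Stage slopes per 0.1 turned to -0.0125 for Su(H) (block 3), -0.0153 for delta (every probe), and 0.00520 (brightest probe) and 0.0160 (within combinations) for notch. On 1 replicate they ran from -0.0302 to 0.0473 for Su(H), -0.0224 to 0.0529 for delta and -0.0132 to 0.0107 for notch. In sister cultures of block 4, notch and Su(H) gave r = 0.136, or 0.264 with array medians removed (where rho, 0.394, passed at an adjusted permutation p of 0.00987), and delta and notch gave -0.0478 with medians removed.

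Over all genes, the 13 calls for 18C against 12C ranged from 4 (block 3) to 31 (every probe), the 3 for 15C against 12C from 0 to 5, the 3 for 18C against 15C from 0 to 8 and the 12 for temperature by block from 0 (without replicate 1) to 17. Female calls, 60 in all, ranged from 25 to 61, male calls, 56 in all, from 10 to 56, and the 1 stage call from 0 to 6. The non-normalized table with every probe and the difference between Su(H) probes were chosen after seeing the data, as was the probe fit with array medians removed.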
